A study of Rattus norvegicus with 90 samples.

Results

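Primary renal proximal tubular epithelial cells from Sprague-Dawley rats were kept in vehicle, the maintenance medium of the cells without toxicant, and were collected after 9 h or after 24 h. The 10 libraries of these cultures, 5 at each time, were chosen by their sample labels from the 90 libraries of the series. The series holds 18 groups of 5 libraries, in which hepatocytes, renal cells and cardiomyocytes received vehicle, a low dose or a high dose of thioacetamide-S-oxide, the reactive metabolite of the liver toxicant thioacetamide. Renal cells received 0.125 mM as the low dose and 0.5 mM as the high dose. Both vehicle groups consisted of untreated cells of the same strain and cell type, with dose 0 mM, which had grown for 18 h after attachment and medium change before the vehicle was added. The cells were bought as a cryopreserved stock and grown on coated plates, and the labels name no animal, lot or plate. The p-values therefore measure the spread between cultures, which may be technical. The comparison asked which transcripts differed between 9 h and 24 h in cultures without toxicant. Each time has its own libraries, so that time and any other difference between these sets of cultures cannot be told apart.

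Proximal tubular cells line the first part of the nephron and take most of the filtered glucose, amino acids, phosphate and bicarbonate back into the blood. They carry transporters on a brush border, use much oxidative metabolism, and activate and clear many drugs, which is why they are a common target of toxicants. Outside the kidney these cells are known to lose part of their specialised expression as they attach, spread and divide, so that the age of a culture is itself a variable. The deposited tables name transcripts by Ensembl identifier and pair none with a gene, and 0 of the 40071 transcripts were matched to a gene symbol. Transcripts are therefore described by level, by length, by the cell type in which they were most abundant, and by 4 identifiers picked by rule. The label of the cells was not checked against marker genes. The vehicle cultures could only be compared with the dosed cultures of the same label and with the other cell types. The 747 transcripts that the dosed renal cultures expressed at 8 or more times the level of hepatocytes and of cardiomyocytes made up 3.43 ± 0.0335% of the summed TPM (the deposited level per transcript length, scaled to the library total) in vehicle cultures at 9 h and 4.15 ± 0.0775% at 24 h (SD, n = 5 each). In cardiomyocyte vehicle cultures at 24 h, which were not used to choose them, their share was 0.151 ± 0.0257% (SD, n = 5).

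Each library held between 11415878 and 30970392 estimated counts, of which 92.1 to 94.5% fell on transcripts, and detected 20458 to 22911 transcripts with at least 1 count. No 2 tables were identical. All 5 libraries of 9 h lay close together, with Spearman correlations of 0.991 to 0.992 with each other. Of the 24 h libraries, MS-136, MS-138 and MS-139 were as close (0.991 to 0.992), whereas MS-137 and MS-140 stood apart from these (0.979 to 0.981) and were nearer to each other (0.987). Measured from different ones of the other 3 libraries, so as to share no baseline, their deviations correlated with r between 0.43 and 0.52 across 12858 transcripts, over the 6 ways to divide the 3. Measured from the mean of the other 3, the deviations had a median size of 0.17 and 0.18 on the log2 scale, against 0.061 for library MS-136 measured from MS-138 and MS-139. Library MS-137 also had the fewest counts, 11415878, but library MS-140 had 27450553, within the range of the others. The biological coefficient of variation (BCV), edgeR's estimate of the spread between libraries beyond counting error, was 8.84% at 9 h and 19.4% at 24 h, and 10.2% at 24 h without these libraries. The total of changed transcripts and several other counts are given with and without these libraries, and the remaining counts with them only. What set MS-137 and MS-140 apart was not tested.

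**Figure D1:**
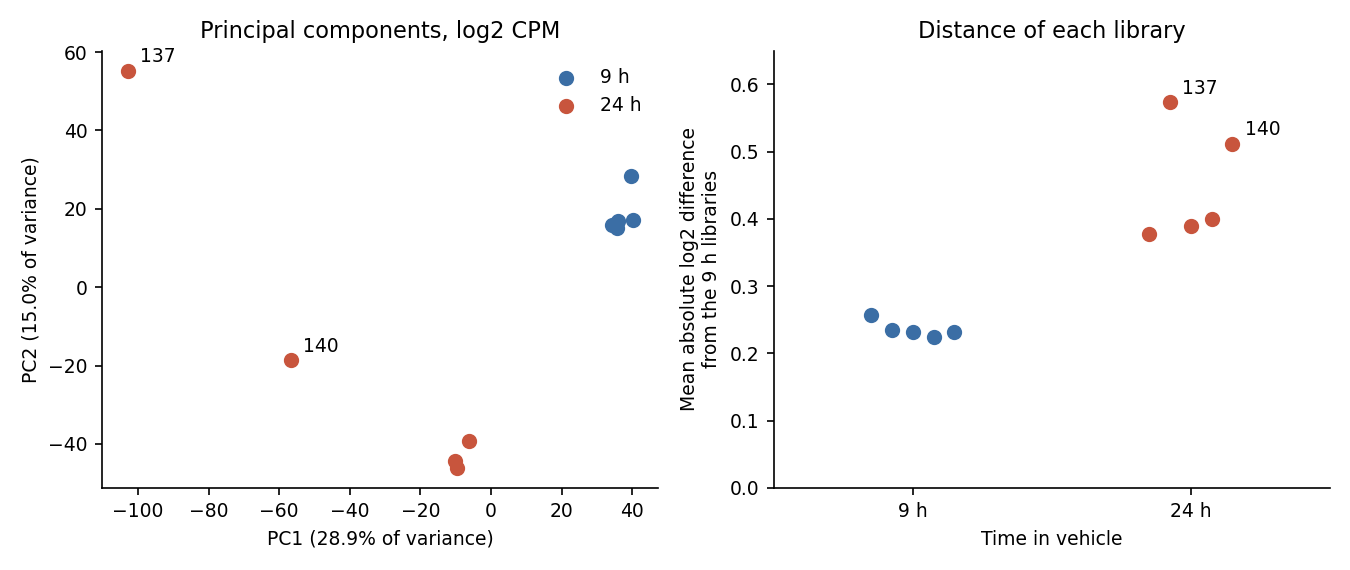
Left, each of the 10 vehicle libraries placed by the first and second principal components of log2 CPM (counts scaled to the library total; 28.9% and 15.02% of the variance). Right, the mean absolute log2 difference of each library from the 9 h mean, with each 9 h library measured from the other 4 of its group. Libraries MS-137 and MS-140 of 24 h lie farthest from the 9 h libraries in both panels.

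A difference between the times larger than the spread between cultures was found in a minority of the transcripts. Of 17658 transcripts with enough counts, 803 were higher and 804 lower at 24 h, which is 9.1% of the transcripts tested (4.55% in each direction). Following the thresholds of the study, a transcript is called a differentially expressed gene (DEG) where the p-value of edgeR's quasi-likelihood test, adjusted by Benjamini and Hochberg, did not exceed 0.05 and the change reached 0.41 on the natural-log scale, about 1.5-fold. Several transcripts of one gene can each be a DEG. Most of the changes were small. The median fold was 1.84 among the DEGs that rose (interquartile range 1.65 to 2.26) and 1.82 among those that fell (1.64 to 2.19). Changes of 2-fold or more were found in 308 transcripts that rose and 279 that fell, and changes of 8-fold or more in 13 and 34. A trace of hepatocyte RNA, described further on, bears on the largest falls. It accounted for 50% or more of the 9 h level in 38 transcripts tested, with a median log2 fold change of -3.20. Of these, 27 were falls and 2 were rises among the DEGs. The 5 libraries of one time lay entirely on one side of the 5 of the other for 658 of the 803 that rose and 725 of the 804 that fell, where 27.5% of all transcripts tested were separated in this way. Without the fold threshold, 5842 transcripts (33.1%) passed the adjusted p-value, and 7620 (43.2%) had an unadjusted p-value under 0.05. Among the 5842, the largest fold left out was 1.506 and the smallest counted as a DEG was 1.507.

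Averaged over the transcripts tested, the absolute log2 fold change was 0.319, with a median of 0.20, and 15124 (85.6%) differed by less than 1.5-fold. Single 24 h libraries differed from the 9 h mean by 0.378, 0.574, 0.389, 0.399 and 0.512 on average (log2 CPM scale, libraries MS-136 to MS-140), a mean of 0.450 ± 0.0876 (SD, n = 5). The 9 h libraries differed from the mean of their own group by 0.224 to 0.257. Every 24 h library was thus farther from the 9 h group than any 9 h library was, and libraries MS-137 and MS-140 were the farthest.

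**Figure D2:**
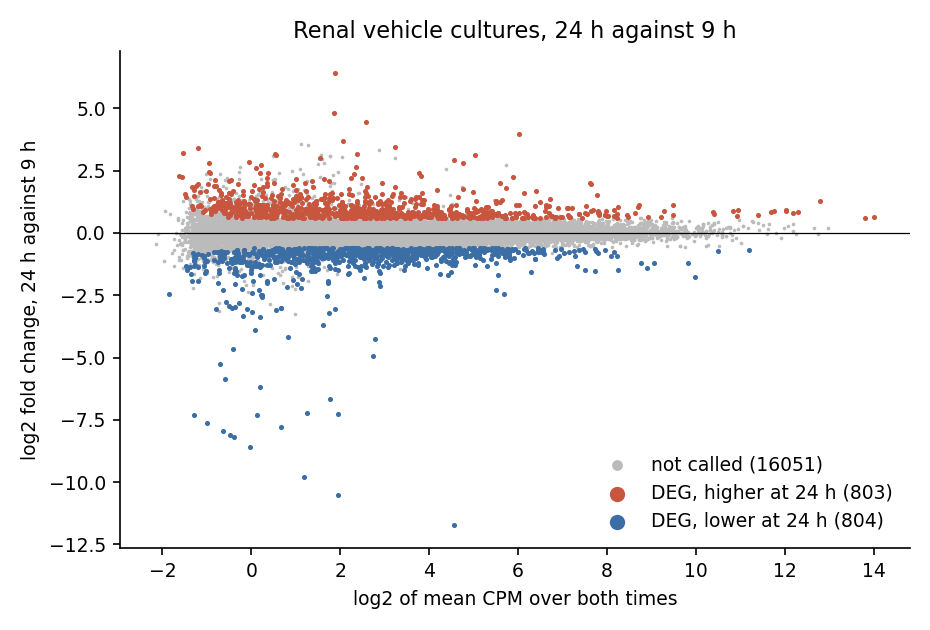
Change over time against level for the 17658 transcripts tested. The horizontal axis is the log2 of the mean CPM over both times, and the vertical axis the edgeR log2 fold change of 24 h against 9 h, with the 803 DEGs that were higher at 24 h in red and the 804 that were lower in blue; the steepest falls, below -5, include transcripts abundant in hepatocytes that are described further on.

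Leaving out libraries MS-137 and MS-140 gave 1491 DEGs, 678 higher and 813 lower (8.22% of 18141 tested). Of the 803 transcripts that rose, 583 were again DEGs in the same direction, as were 661 of the 804 that fell, and all 1607 kept the sign of their change. Among the 803 rises, both libraries lay above the other 3 of 24 h for 36.1% and below them for 12.6%. Among the 804 falls, they lay below for 25.1% and above for 13.8%, where over all transcripts tested they lay above for 25.4% and below for 26.8%. On both lists they thus lay farther in the direction of the change more often than the reverse, but for the falls the 25.1% was not above the 26.8% over all transcripts. The lists were chosen with these libraries in the fit, which can itself shape these shares, so they are a description. The split between rises and falls also depended on the scale. TMM factors, which set the bulk of transcripts to no change, gave 803 rises and 804 falls. On the deposited TPM scale, where each library sums to the same total, limma gave 360 rises and 758 falls with log2(TPM + 1) and 603 rises and 1134 falls with log2(TPM + 0.1). The median change over all transcripts tested was -0.0048 on the first scale and -0.075 and -0.095 on the TPM scales (log2).

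With the counts, DEGs were found more often among scarce transcripts than among abundant ones. At a mean level below 1 TPM, 15.1% of 2186 tested were DEGs, 8.51% higher and 6.63% lower, and at 1 to 10 TPM 377 of 6675 rose and 452 fell (12.4%). The share was 4.83% of 7426 at 10 to 100 TPM and 6.42% of 1371 at 100 TPM and over. On the log2(TPM + 1) scale, where the pseudocount shrinks low levels, the scarcest bin had the smallest share, 2.79%, and the shares of the others were 8.72, 5.10 and 7.002%. At the highest levels more transcripts rose (61) than fell (27), a balance that rested on 2 libraries and on the scale, since without libraries MS-137 and MS-140 the numbers were 32 and 25, and on the log2(TPM + 1) scale 39 and 57. Among the 100 most abundant transcripts, with mean levels from 1511 to 15540 TPM, 18 rose and 1 fell, but 2 rose and 1 fell without these libraries, and 13 rose and 10 fell on the log2(TPM + 1) scale. The share of the RNA pool shows the same libraries. The 803 transcripts that rose made up 8.94, 8.25, 8.60, 8.78 and 8.85% of all TPM in the 9 h libraries, and 12.03, 18.3, 11.9, 11.9 and 19.4% in the 24 h libraries MS-136 to MS-140. All 24 h libraries were above all 9 h libraries, as the choice of these transcripts made likely, but MS-137 and MS-140 stood far above the other 3. The 804 that fell made up 2.25 ± 0.0198% of TPM at 9 h and 1.11 ± 0.0646% at 24 h (SD, n = 5). Here too MS-137 and MS-140 lay apart, both at 1.04%, below the 1.13 to 1.16% of the other 24 h libraries.

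By transcript length, DEGs were 7.61% of 2430 transcripts shorter than 1000 bases, 8.73% of 5455 at 1000 to 2000 bases, 9.59% of 6650 at 2000 to 4000 and 9.86% of 3123 at 4000 and over, and the median log2 fold change lay between -0.010 and -0.0034 in all 4 bins. The size of this gradient rested on 2 libraries and its direction on the scale. Without MS-137 and MS-140 the share rose from 5.27% in the shortest bin to 9.83% in the longest, and on the log2(TPM + 1) scale it dropped from 9.63 to 4.87%. The median deviation of MS-137 and MS-140 from the other 24 h libraries was -0.063 on the log2 scale below 1000 bases and 0.025 at 4000 bases and over. Their shares of TPM did not run this way, since transcripts below 1000 bases took 44.7 and 44.3% in these libraries and 43.02 to 44.3% in the others, and those of 4000 bases and over 5.67 and 5.69% against 5.72 to 5.99%. Kallisto divides reads that several transcripts share, and 7169 of the transcripts tested had counts within 1e-06 of a whole number in all 10 libraries. DEGs were 10.2% of these and 8.36% of the other 10489.

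Transcripts far more abundant in dosed renal cultures than in the other cell types changed more often than those all share, and mainly upwards. This class was set by the dosed renal cultures of 9 and 24 h and by hepatocyte and cardiomyocyte vehicle cultures at 9 h. None of these enters the comparison of times. Only the renal side thus held dosed cells and 24 h cultures. Transcripts raised by the dose or by longer culture could enter the class, which may favour rises, and this was not tested. A transcript was called renal-preferring where its mean level in the dosed renal libraries was at least 1 TPM and at least 8 times that in both other cell types, and shared where all 3 cell types had at least 1 TPM within 8-fold of each other. Of the 747 renal-preferring transcripts, 620 had enough counts to be tested. Among them 23.5% rose and 7.58% fell (31.1% together, where 9.1% of all transcripts tested were DEGs), with a median log2 fold change of 0.23 against -0.0048 over all. Of the 11320 shared transcripts tested, 1.34% rose and 1.72% fell (3.07%). Levels differ between the classes, with a median of 7.64 TPM for the renal-preferring and 16.4 TPM for the shared, but the order held within each range of levels. At 1 to 10 TPM 34.98% of 323 renal-preferring and 4.55% of 3894 shared transcripts were DEGs, at 10 to 100 TPM 27.4% of 215 and 2.04% of 6269, and at 100 TPM and over 22.6% of 62 and 3.72% of 1130. The rises outnumbered the falls without libraries MS-137 and MS-140 (20.8 and 6.94% of 620) and on both TPM scales (13.9 and 8.55%, 19.03 and 9.84%).

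As a part of the RNA pool, the 620 renal-preferring transcripts grew from 3.41 ± 0.0348% of TPM at 9 h to 4.10 ± 0.0549% at 24 h (SD, n = 5 each). The values of the single libraries were 3.44, 3.36, 3.40, 3.41 and 3.45% at 9 h and 4.11, 4.08, 4.02, 4.13 and 4.17% at 24 h. The times did not overlap, and libraries MS-137 (4.08%) and MS-140 (4.17%) lay in or next to the range of the other 24 h libraries. In such bulk samples a change in the number of cells of one kind and a change in the RNA of each cell cannot be told apart. Among these transcripts, 223 were higher in every 24 h library than in any 9 h library and 91 were lower, with 27.5% separated over all transcripts tested.

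**Figure D3:**
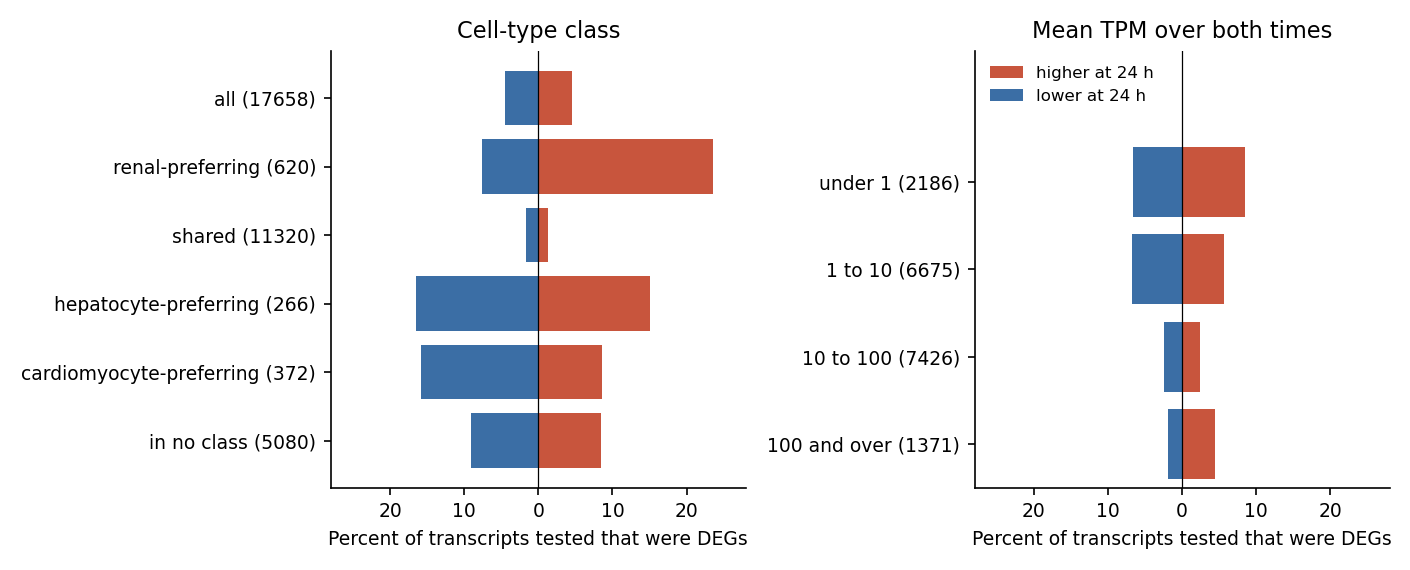
Share of the transcripts tested that were DEGs, in percent, with rises to the right in red and falls to the left in blue, by cell-type class (left) and by mean TPM over both times (right), with the number tested in brackets. The renal-preferring class has the longest bar to the right (23.5%), and the shared class the shortest bars.

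Transcripts typical of the other cell types were scarce in these cultures, and most were below the limit for testing. Of 769 cardiomyocyte-preferring transcripts, 372 were tested, and 32 rose and 59 fell (24.5%), with a median log2 fold change of -0.20 (-0.15 without libraries MS-137 and MS-140). Falls outnumbered rises on the TPM scales as well (40 and 12, 69 and 26). Of 1023 hepatocyte-preferring transcripts, 266 were tested, and 40 rose and 44 fell (31.6%). The median levels of these classes were 1.30 and 1.25 TPM, in the range where DEGs were frequent among all transcripts. A trace of hepatocyte RNA in the 9 h libraries bears on this last class. The 5080 transcripts in none of these classes held 433 rises and 459 falls (17.6%).

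This trace was measured with 27 transcripts that hepatocyte vehicle cultures at 9 h expressed at 500 TPM or more, at over 2000 times their level in dosed renal cells and in cardiomyocytes. Their summed level was 88.2, 130.1, 55.3, 292.7 and 49.9 TPM in the renal vehicle libraries of 9 h (MS-121 to MS-125), and 1.48 to 2.63 TPM in those of 24 h. The 20 dosed renal libraries were low by the choice of these transcripts, in which the vehicle libraries of 24 h had no part. Relative to their sum in hepatocyte cultures, 69384 TPM, the 9 h vehicle libraries held 0.127, 0.188, 0.0796, 0.422 and 0.0719%, and those of 24 h between 0.00213 and 0.00379%. At most 2 of the 27 transcripts were at 0 in any of the 5 libraries, whereas 16 to 19 were at 0 in those of vehicle at 24 h. How the trace came about was not tested. With these shares of the hepatocyte profile taken off the 9 h libraries, 1598 DEGs were counted (9.07%), 821 higher and 777 lower, of which 1569 were DEGs in the same direction before. Transcripts in which the hepatocyte profile accounted for 50% or more of the 9 h level were few (38 tested), and 27 of the 804 falls and 2 of the 803 rises were among them. A share of 10% or more applied to 31 of the 44 hepatocyte-preferring falls and to 10 of the 40 rises, and among all transcripts with a share of 10 to 50% the rises (10) outnumbered the falls (6).

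**Figure D4:**
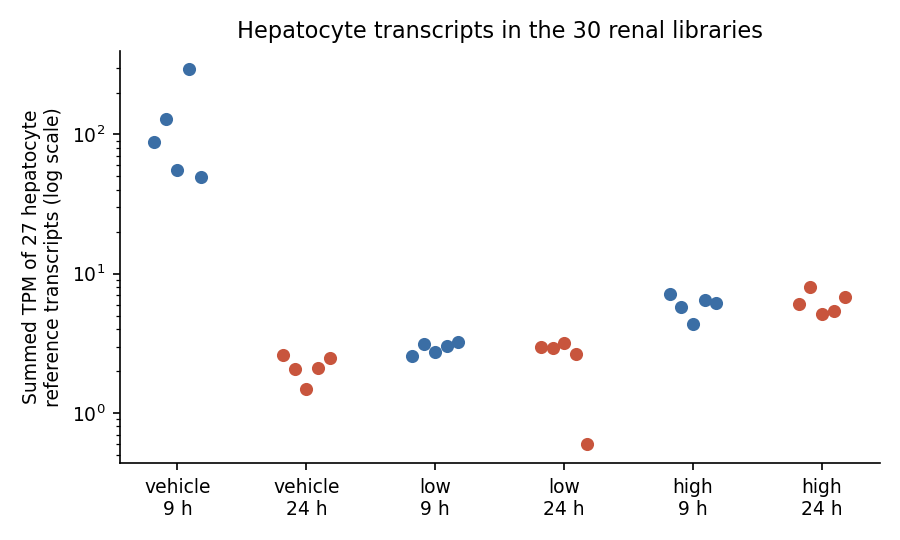
Summed TPM of the 27 hepatocyte reference transcripts in each of the 30 renal libraries, on a log scale, with 9 h in blue and 24 h in red. The 5 vehicle libraries of 9 h lie between 49.9 and 292.7 TPM, above the 1.48 to 2.63 TPM of the 5 vehicle libraries of 24 h; the dosed libraries are low by the choice of the transcripts.

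The transcripts named here are DEGs without overlap between the times and with an average log2 CPM of 3 or more as edgeR gives it over both times, and of these the 2 with the largest rises and the 2 with the largest falls. All but ENSRNOT00000007790 were under that level at one of the times and met it through the other. Their folds and p-values in vehicle are thus a description of the choice. A change larger in vehicle than in other cultures was favoured in the same way, and such differences are given without p-values. The sharpest rise was that of ENSRNOT00000024084, a transcript of 1436 bases. Its level was 8.19, 6.75, 8.25, 7.71 and 7.88 CPM in the 9 h libraries and 119.2, 125.1, 122.3, 123.1 and 121.2 CPM in the 24 h libraries, where CPM values were scaled by the TMM factors. All 24 h libraries were alike, MS-137 and MS-140 included, and none came near the 9 h range. The log2 fold change was 3.98 (standard error 0.051), about 15.7-fold, with an adjusted p-value of 6.54e-12 from edgeR. Per length, it moved from 8.32 ± 0.710 to 123.6 ± 4.16 TPM (SD, n = 5), which is above the 27.6 ± 3.89 TPM of hepatocyte vehicle cultures and the 1.58 ± 0.240 TPM of cardiomyocyte vehicle cultures at 9 h.

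This transcript also rose with time in the dosed renal cultures, from a higher start. It stood at 19.3 ± 1.0 TPM at 9 h and 104.4 ± 43.9 TPM at 24 h in the low dose (SD, n = 5), with one 24 h library, MS-145, at 28.3 TPM and the other 4 between 106 and 133.9 TPM. The change in the low dose was 2.58 on the log2 scale (adjusted p = 8.15e-05, edgeR), and 2.72 without library MS-145. In the high dose the level moved from 22.3 ± 2.59 to 45.7 ± 3.92 TPM, a log2 fold change of 1.05 (adjusted p = 2.86e-06). The change in the low dose minus that in vehicle, the interaction of time and dose in edgeR, was -1.40 log2 units, and the change in the high dose minus that in vehicle was -2.93.

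ENSRNOT00000066932, of 8286 bases, is a scarcer transcript whose reads were in part divided with others. It was at 1.40, 1.92, 1.91, 0.849 and 1.77 CPM at 9 h and at 19.2, 20.4, 18.1, 16.8 and 12.1 CPM at 24 h. The lowest 24 h library, MS-140, was still well above the highest of 9 h. The log2 fold change was 3.46 (standard error 0.21, adjusted p = 5.89e-07, edgeR). In TPM the 9 h vehicle group, at 0.263 ± 0.0756, was the lowest of the 6 renal groups, and the others lay between 1.38 ± 0.226 (low dose, 9 h) and 2.75 ± 0.536 TPM (vehicle, 24 h) (SD, n = 5). The 24 h vehicle level differed little from the 2.60 ± 0.470 TPM of the high dose at 24 h, and their libraries overlapped. In dosed cultures the change with time was 0.83 in the low dose (adjusted p = 0.0555) and 0.56 in the high dose (adjusted p = 0.0146) on the log2 scale, so that the change in the high dose passed the test of p but not the fold threshold. The low dose turned on library MS-145, without which its change was 0.84 (adjusted p = 0.0348, edgeR) and passed both. The interactions were -2.63 with the low dose and -2.90 with the high dose on the log2 scale.

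ENSRNOT00000007790, of 1561 bases and with whole counts, fell. The 9 h libraries held 87.4, 84.0, 86.5, 92.3 and 86.4 CPM and those of 24 h 16.4, 17.3, 14.4, 15.4 and 16.9 CPM. Both groups were tight, with SDs of 3.06 and 1.19 CPM, and far apart. The log2 fold change was -2.45 (standard error 0.052, adjusted p = 3.82e-10, edgeR), a 5.45-fold fall. Again the 9 h vehicle cultures stood out among the renal groups, here as the highest, at 85.3 ± 3.43 TPM. The low dose held 11.8 ± 0.694 TPM at 9 h and 10.5 ± 3.25 TPM at 24 h (SD, n = 5), with MS-145 at 4.86 TPM and the other 4 libraries of 24 h between 11.4 and 13.2 TPM. The change in the edgeR fit, which scales each library by TMM, was 0.051 on the log2 scale (adjusted p = 0.829), and 0.079 (adjusted p = 0.675) without MS-145. In contrast, the high dose fell from 24.8 ± 2.63 to 10.1 ± 0.822 TPM, a change of -1.28 (adjusted p = 4.27e-07, edgeR). The interactions were 2.50 and 1.16 in the same order of doses. At 14.8 ± 0.948 TPM, the 24 h vehicle level was above the 24 h levels of both doses.

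ENSRNOT00000003921, of 2069 bases, is one of the 27 hepatocyte reference transcripts, and so had a part in the measure of the trace. The 9 h libraries held 765, 1175, 522, 3380 and 497 counts, and the 24 h libraries 0, 0, 0, 1 and 0. Pooled over the 5 libraries of each time, this is 6339 counts against 1, a ratio of 5978 in CPM with a 95% counting interval from 1073 to 236163, which covers counting error only. In hepatocyte vehicle cultures the transcript stood at 18206 ± 654 TPM (SD, n = 5). Its level in the renal 9 h libraries was 0.137, 0.186, 0.0783, 0.453 and 0.0778% of that, beside 0.124, 0.188, 0.0801, 0.411 and 0.0697% for the sum of the other 26 reference transcripts. The order of the libraries was the same in both. Of all transcripts, 8 had at least 10 counts in every 9 h library and less than 0.5 in every 24 h library, and 6 of these had 100 TPM or more in hepatocytes. None had the opposite pattern, with at least 10 counts in every 24 h library and less than 0.5 in all of 9 h.

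**Figure D5:**
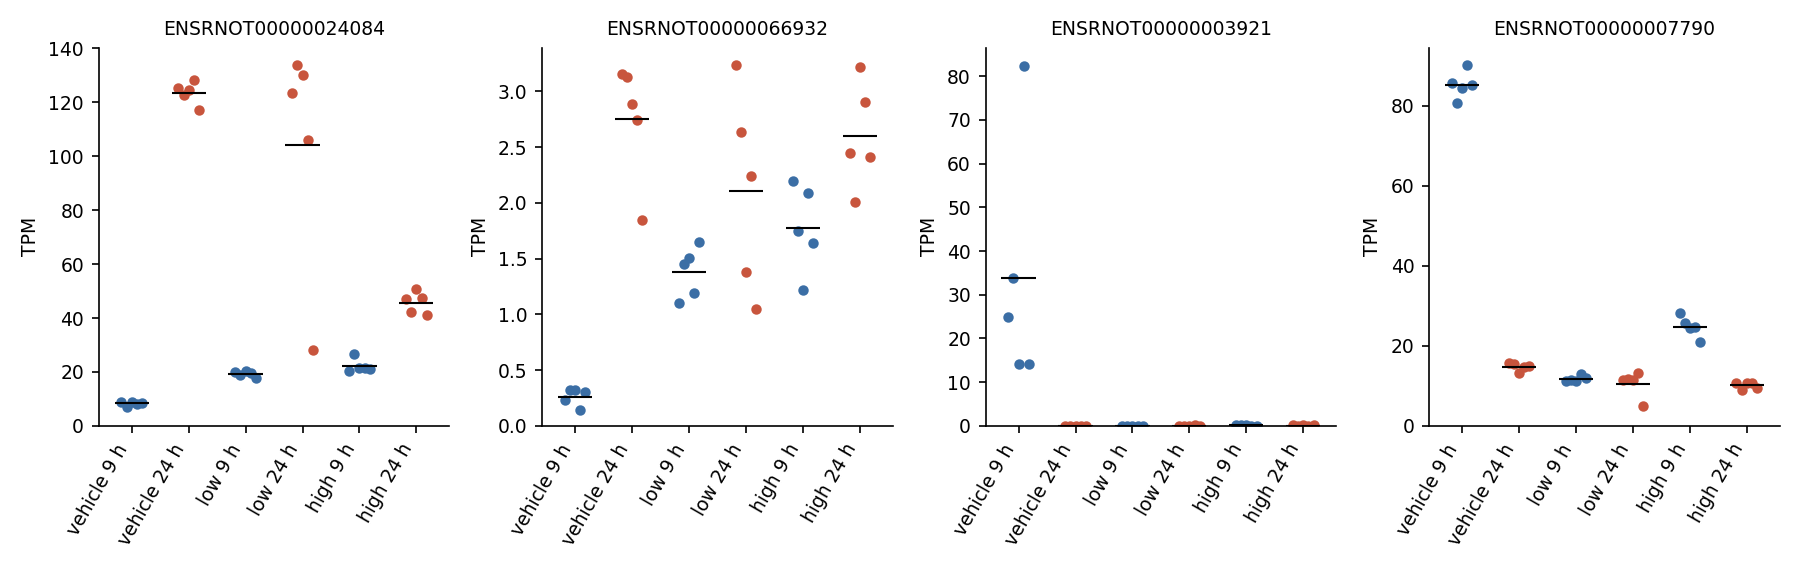
TPM of the 4 named transcripts in each library of the 6 renal groups, with 9 h in blue, 24 h in red and the group mean as a line. Vehicle at 9 h is the lowest group for ENSRNOT00000024084 and ENSRNOT00000066932 and the highest for the other two.

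The pattern of a 9 h vehicle group that lies outside the other renal groups was common among the DEGs. The mean level of 9 h vehicle, on the log2(TPM + 1) scale, was the lowest of the 6 renal groups for 349 of the 803 transcripts that rose (43.5%) and the highest for 602 of the 804 that fell (74.9%), against 8.73% and 24.3% of all transcripts tested. The 24 h vehicle group was the highest of the 6 for 490 of the rises (61.02%, against 13.9%) and the lowest for 14.4% of the falls (against 6.05%). The DEGs were chosen on the vehicle libraries, which favours such places, so these shares are a description. Taken over the 803 rises, the mean log2(TPM + 1) was 2.41 ± 0.0131 in vehicle at 9 h and 3.03 ± 0.0434 at 24 h, with 2.75 ± 0.0388 in the low dose and 2.57 ± 0.0239 in the high dose at 9 h (SD, n = 5). Over the 804 falls, it was 2.95 ± 0.0192 and 2.18 ± 0.0677 in vehicle, with 2.46 ± 0.0253 and 2.45 ± 0.0145 in the low and high doses at 9 h. In these averages the dosed cultures of 9 h lay between the vehicle cultures of 9 and 24 h on both lists. For single transcripts, the low dose at 9 h lay between the vehicle times for 76.1% of the rises and 65.7% of the falls, against 42.7% of all transcripts tested. The high dose at 9 h did so for 45.6 and 58.96%, against 24.7% of all. The DEGs were chosen for a wide gap between the vehicle times, which by itself leaves more room between them, so that these shares and averages are a description as well. The trace of hepatocyte RNA set the same 9 h vehicle libraries apart, and an effect of the dose and a peculiarity of these libraries cannot be told apart.

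Change over time in the dosed renal cultures was tested on separate libraries. The low dose gave 433 DEGs between 9 and 24 h (2.46% of 17584 tested), 0.921% higher and 1.54% lower, and 681 without library MS-145 (3.79% of 17990, 1.43% higher and 2.36% lower), whose group had a BCV of 44.6% with it and 24.5% without it. The high dose gave 2397 (13.4% of 17941), 1081 higher (6.03%) and 1316 lower (7.34%). Of the 1607 vehicle DEGs, 1538 were tested in the low dose. There 225 (14.0% of the 1607) were DEGs in the same direction and 12 in the opposite one. The 225 made up 52.2% of the low-dose DEGs that had been tested in vehicle, and without library MS-145 308 went the same way (19.2%, and 46.0% of the low-dose DEGs). In the high dose 335 (20.8%) went the same way, which was 14.9% of its DEGs tested in vehicle, and 10.7% of the vehicle DEGs the opposite way. The vehicle rises were DEGs in the same direction in 9.22% of cases and in the opposite one in 14.6%, and the falls in 32.5 and 6.84%. The vehicle rises had a median log2 fold change of 0.35 in the low dose and -0.049 in the high dose, and the falls of -0.33 and -0.35. Whether called or not, 643 of 795 rises and 548 of 743 falls tested in the low dose had the same sign there. In the high dose these were 350 of 756 and 523 of 751. Across all transcripts tested in both, which are not independent replicates, the correlation of log2 fold changes with vehicle was r = 0.37 for the low dose (17279 transcripts) and r = 0.19 for the high dose (17198).

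The difference between the changes was tested directly. It passed for 645 transcripts for the low dose (3.5% of 18454), with 385 more positive (2.09%) and 260 more negative (1.41%) changes in the low dose than in vehicle, and for 884 without library MS-145. For the high dose it passed for 2781 (14.8% of 18752), 1224 positive (6.53%) and 1557 negative (8.3%), and for 3038 without libraries MS-137 and MS-140. The renal-preferring transcripts show these changes for one list. They were chosen on their level in the dosed renal libraries, which also supply the changes in the doses. Their shares in the doses and in the direct test are therefore a description. In vehicle 23.5% of 620 rose and 7.58% fell, in the low dose 4.38% of 616 rose and 2.60% fell (5.34 and 4.05% without library MS-145), and in the high dose 8.36% of 610 rose and 20.8% fell. Their median log2 fold changes were 0.23, 0.054 and -0.15, with medians over all transcripts tested of -0.0048, 0.0082 and 0.0025. In the direct test, the change in the low dose was more positive than in vehicle for 6.77% of the 620 and more negative for 11.8%, and that in the high dose for 11.1 and 34.4%. Those that rose in vehicle, a choice that by itself favours a larger change there, had a median change of 0.93 in vehicle, of 0.25 in the low dose and of -0.14 in the high dose, where 6.34% of those tested rose and 21.8% fell.

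Cardiomyocytes kept in vehicle over the same times gave 1303 DEGs (7.7% of 16921), 850 higher (5.02%) and 453 lower (2.68%). Of the 1607 renal DEGs, 1215 were tested in cardiomyocytes (561 rises and 654 falls). There 94 of the rises and 49 of the falls were DEGs in the same direction (8.90% of all 1607, those not tested included). Together they were 13.9% of the cardiomyocyte DEGs tested in renal cells, and 70 of the renal DEGs went the opposite way. The changes in the cell types correlated weakly across 15921 transcripts (r = 0.17). A direct test found 1977 transcripts (10.4% of 18975) whose change over time differed between the cell types, 820 with a higher (4.32%) and 1157 with a lower (6.1%) change in renal cells. For the named transcripts ENSRNOT00000024084 and ENSRNOT00000007790, which were chosen for their change in renal cells, the difference was 4.88 and -2.49 on the log2 scale.

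The tables also list 25095 genomic intervals beside the transcripts, the shortest of 1003 bases and the longest of 20000 bases, which was also the median. They took 7.67 ± 0.317% of the estimated counts at 9 h and 6.63 ± 0.828% at 24 h (SD, n = 5). In libraries MS-137 and MS-140 the share was 6.01 and 5.48%, in the other 24 h libraries 7.14 to 7.26%, and at 9 h 7.24 to 7.94%. The ranges of 9 h and of the other 3 libraries of 24 h overlapped, and MS-137 and MS-140 lay below both. Of 6609 intervals with enough counts, 273 were higher (4.13%) and 195 lower (2.95%) at 24 h (7.08% together), and without libraries MS-137 and MS-140 the numbers were 214 and 205.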

How the data were processed

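The 10 renal vehicle libraries are poly-A-enriched, paired-end RNA-seq libraries. The authors pseudo-aligned the reads with kallisto 0.42.4 to the Rnor_6.0 transcriptome of Ensembl and deposited, per library, an estimated count and a TPM value for each target. These counts can hold fractions, since kallisto splits a read that fits more than one transcript, so that changes of single transcripts of one gene are less certain than of transcripts with reads of their own. The Sleuth fits of the study were not used here.

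Groups were taken from the sample labels. The 40071 targets with Ensembl transcript identifiers were tested, and the 25095 intervals separately. After rounding to integers, the counts were tested with edgeR 4.0.16 under R 4.3.3 (TMM factors after filterByExpr, then estimateDisp, glmQLFit and glmQLFTest). The adjustment of Benjamini and Hochberg covered all transcripts tested. Interactions were fitted with 4 groups and 20 libraries. Standard errors are the log2 fold change divided by the square root of the F statistic. The alternatives were DESeq2 1.42.0, upper-quartile factors, 2 other filters, limma 3.58.1 on log2(CPM + 0.5) and on the deposited TPM, all 30 renal libraries in one fit, other thresholds, whole counts only, intervals in the same fit, thinning to the smallest library, and each library left out in turn. Leaving out libraries MS-137 and MS-140 together, and the steps on the hepatocyte trace, were added after the data were seen. The functions were tested on simulated data.

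The comparison, classes and named transcripts were chosen with earlier results of these data known. Marker and pathway lists had been fixed by gene symbol and could not be used, as no table at hand paired the transcripts with genes. Libraries held 11415878 to 30970392 estimated counts. Hepatocyte vehicle (9 h), cardiomyocyte vehicle and dosed renal libraries were used for comparison, 45 libraries in all; the other libraries were not used here.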

Additional observations from a re-analysis of the deposited data

Results flagged for a closer look

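A total of 44 sets of 5 libraries were searched for a sample far from its group by Dixon's test, which chance passes in about 1 of 20, and 10 passed. Library MS-137 of vehicle at 24 h had 11415878 estimated counts, against 27343880 or more in the other 4, and 20458 transcripts detected, against 22205 or more. Library MS-121 of vehicle at 9 h had a median Spearman correlation of 0.9913 with its group, where the others had 0.9921 or more. In library MS-122 of 9 h the 100 most abundant transcripts took 32.3% of TPM, against 31.1 to 31.4% in the other 4. ENSRNOT00000003921 was far from its group in vehicle library MS-124 of 9 h (82.4 TPM, next 33.9), in vehicle library MS-139 of 24 h (0.0264 TPM, all others 0) and in low-dose library MS-144 of 24 h (0.115 TPM, next 0.0228), the last 2 of which rest on 1 and 5 counts. Low-dose library MS-145 of 24 h was low for ENSRNOT00000007790 (4.86 TPM, next 11.4) and for ENSRNOT00000024084 (28.3 TPM, next 106). High-dose library MS-132 of 9 h was high for ENSRNOT00000024084 (26.8 TPM, next 21.6).

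Change over time differed between the vehicle cultures and others in tests of the difference itself. It passed for 645 transcripts against the low dose, 2781 against the high dose and 1977 against cardiomyocyte vehicle. In the named transcripts, which were chosen for a large change in renal vehicle so that a larger change there was favoured, the change in the low dose minus that in vehicle was -1.40 for ENSRNOT00000024084, -2.63 for ENSRNOT00000066932 and 2.50 for ENSRNOT00000007790 on the log2 scale. For the high dose it was -2.93, -2.90 and 1.16 in the same order. The change in renal vehicle minus that in cardiomyocyte vehicle was 4.88 for ENSRNOT00000024084, 4.92 for ENSRNOT00000066932 and -2.49 for ENSRNOT00000007790.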

How the results depend on the processing

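The count of 1607 DEGs ranged from 1118 (limma on log2(TPM + 1)) to 1737 (limma on log2(TPM + 0.1)) across the settings that kept the thresholds and all transcripts, and from 1472 (without library MS-140) to 1684 with one library left out. It was 587 at a fold of at least 2, 5842 with no fold threshold and 795 with whole counts only, where fewer transcripts were tested (7158). The share of rises was 49.97% in the reported test and 32.2 and 34.7% on the TPM scales. It was 1610 with upper-quartile factors and 1661 with DESeq2, which has its own test as well. The mean absolute log2 fold change of 0.319 was 0.674 without a filter beyond 1 count, as 28137 transcripts entered, and 0.316 to 0.348 with one library left out. The share of renal-preferring transcripts that were DEGs, 31.1%, was 35.7% of 291 with whole counts only, 32.9% of 419 and 27.95% of 973 at level ratios of 16 and 4, 22.4 and 28.9% on the TPM scales, and 29.1 to 31.5% with one library left out. With no fold threshold, 1039 transcripts passed the interaction with the low dose, 6305 with the high dose and 4566 with cell type, and 948 intervals passed. With one vehicle library left out the 3 interactions ranged from 560 to 597, 2715 to 2860 and 1857 to 1949, and the intervals from 416 to 509. The low-dose interaction was 519 without libraries MS-137 and MS-140, 828 without MS-137, MS-140 and MS-145, and 884 by DESeq2. The named transcripts kept direction and call in every setting in which they were tested, with log2 fold changes of 3.74 to 4.0 for ENSRNOT00000024084, 1.56 to 3.56 for ENSRNOT00000066932, -2.52 to -2.41 for ENSRNOT00000007790 and -13.15 to -4.80 for ENSRNOT00000003921, whose fitted values depend on the offset added to counts near 0. The last was not tested once the hepatocyte share, which its own level helped to measure, was taken off or such transcripts were left out, and ENSRNOT00000066932 and ENSRNOT00000024084 were not among those with whole counts. No paired analysis was possible because the replicate numbers of the labels are not shared between groups. Fewer transcripts were called at a lower depth, since with all libraries thinned to the smallest, 15941 transcripts were tested and 1386 were DEGs.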
